A study of Penicillium oxalicum with 9 samples.

Results

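The 8 genes described here are the major cellulase genes of Penicillium oxalicum strain HP7-1, a filamentous fungus that secretes enzymes which break down plant cell walls. They were taken by gene ID, with earlier results of these data known, and make up 8 of the 9834 IDs that each deposited file lists. The IDs are POX05587, POX04786, POX05571, POX05570, POX06147, POX01166, POX07535 and POX02740. POX05570 and POX05571 carry consecutive numbers. RNA from mycelium was sequenced to explore regulators of amylase genes. The strains were MuPOX01907, in which the gene POX01907 is mutated (deleted, by the title of the series), MuPOX08340, a mutant of POX08340, and Ku70, the control. Each strain had 3 libraries lettered F, S and T, and all were made after 24 h of culture. By the titles both mutants grew in 1% starch and Ku70 in 1% Avicel, a microcrystalline cellulose. The growth protocol, the same text for all 9 libraries, names Avicel and the Ku70 mutant alone. Loss of a regulator and the titled medium therefore cannot be told apart in any comparison with Ku70, whereas both mutants share a titled medium. The sources used here do not say whether the mutants also lack Ku70, a gene of the end joining of broken DNA whose loss eases gene replacement. No label says that the libraries of a strain were grown separately, and the p-values below measure no more than the spread between libraries.

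Fungal cellulases are secreted enzymes that work together. Endoglucanases cut inside cellulose chains, cellobiohydrolases release the disaccharide cellobiose from chain ends, and beta-glucosidases split cellobiose to glucose. In filamentous fungi their genes are known to be transcribed together, at a low basal level without an inducer and strongly on cellulose, and to be repressed by readily used sugars. The files pair no ID with a gene name, so the activity of each of the 8 genes is left out.

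Expected counts, which are estimated reads per gene, totalled 14412296 to 14802260 per library. POX01907 had 1, 1 and 3 counts in MuPOX01907 F, S and T and at least 1346 in the other 6 libraries. POX08340 had 0 counts in each MuPOX08340 library and at least 208 elsewhere. Ku70 F stood apart from its group. Across genes, which are not replicates, its log2(FPKM + 1) values correlated at 0.918 and 0.909 with Ku70 S and T, whereas Ku70 S and T correlated at 0.985 and library pairs within the mutants at 0.978 to 0.995. Whether label or culture differed between Ku70 F and Ku70 S and T, and which of them the titles describe, was not tested. It bears on every value set against Ku70. Ku70 F is therefore described alone, and the basal levels are compared among the other 8 libraries. The word basal here means the levels in those libraries and does not state that an inducer was absent.

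All 8 cellulase genes were far higher in Ku70 F than in Ku70 S and Ku70 T, which carry the same labels. The unit of the levels is FPKM, fragments counted per length of gene and per depth of library, so levels of different genes can be set side by side. The 8 genes took 2.35% of all counts in Ku70 F, against 0.00208% of those in Ku70 S and 0.00210% of those in Ku70 T. The summed level was 17552 FPKM in Ku70 F, against 20 FPKM in Ku70 S and 20.1 FPKM in Ku70 T. The mutant libraries, titled as grown in starch where all Ku70 libraries are titled Avicel, had 15.1 to 28.8 FPKM. In RNA from whole mycelium, fewer hyphae that carry a transcript and less transcript per hypha cannot be told apart.

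POX01166 was the highest member in Ku70 F, at 6193 FPKM, against 1.91 FPKM in Ku70 S and 2.78 FPKM in Ku70 T. It ranked 11 among all IDs of Ku70 F by FPKM. POX04786 had 4809 FPKM in Ku70 F, against 3.24 FPKM in Ku70 S and 1.64 FPKM in Ku70 T. Both genes stood among the most abundant transcripts of that library, POX04786 at rank 21. POX05587 had 2917 FPKM in Ku70 F, against 0.62 FPKM in Ku70 S and 0.83 FPKM in Ku70 T. Its ratio was the largest of all 7081 IDs that reached 10 FPKM in a Ku70 library.

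The next 3 members formed a middle tier. POX05571 had 1349 FPKM in Ku70 F, against 1.08 FPKM in Ku70 S and 1.78 FPKM in Ku70 T. POX05570, its neighbour by number, had 1159 FPKM in Ku70 F, against 1.2 FPKM in Ku70 S and 2.06 FPKM in Ku70 T. POX06147 had 968.5 FPKM in Ku70 F, against 3.12 FPKM in Ku70 S and 3.06 FPKM in Ku70 T. The remaining genes, POX07535 and POX02740, stayed below 100 FPKM even in Ku70 F. POX07535 had 87.5 FPKM in Ku70 F, against 8.34 FPKM in Ku70 S and 7.07 FPKM in Ku70 T. POX02740 had 69 FPKM in Ku70 F, against 0.49 FPKM in Ku70 S and 0.84 FPKM in Ku70 T.

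**Figure D1:**
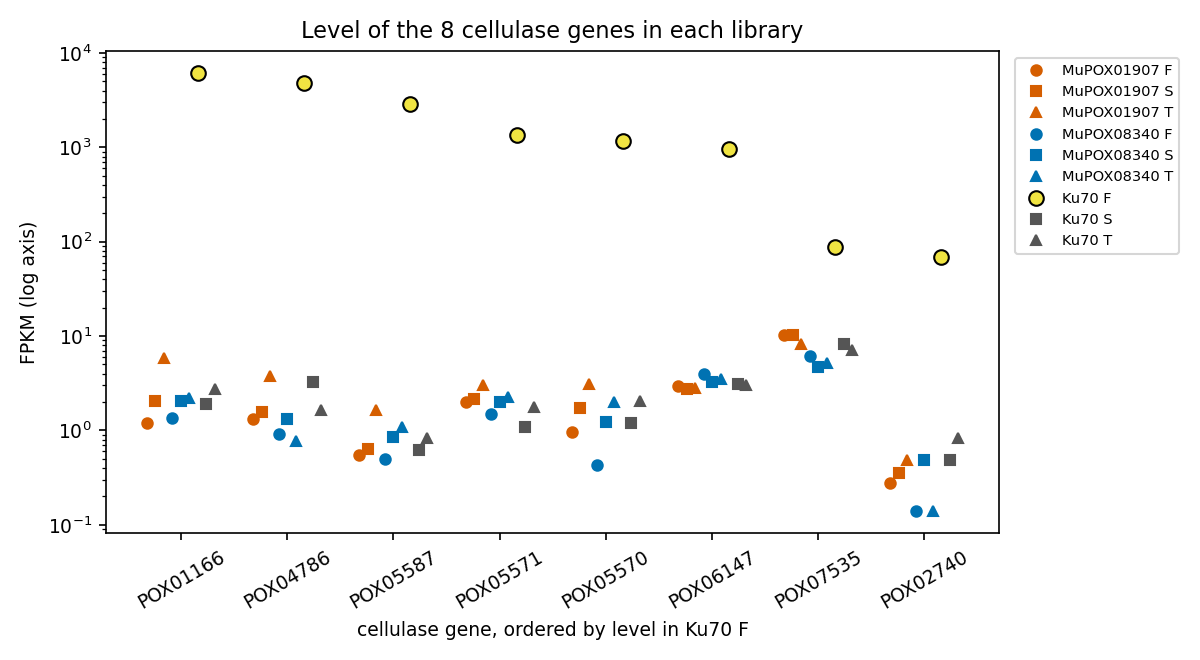
Level in FPKM (log axis) of each of the 8 cellulase genes in each of the 9 libraries, with colour for strain, shape for the library letter and a large yellow circle for Ku70 F. Ku70 F lies between 69 and 6193 FPKM, and every other point lies at or below 10.3 FPKM.

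As ratios of Ku70 F to the mean of Ku70 S and T, the members spanned 11.4-fold (POX07535) to 4024-fold (POX05587), with a median of 827-fold. The other ratios were 2641-fold for POX01166, 1971-fold for POX04786, 943-fold for POX05571, 711-fold for POX05570, 313-fold for POX06147 and 104-fold for POX02740. Few reads stand behind the low side of each ratio. For POX05587, 35 counts in Ku70 S and T together gave a ratio of counts per library total of 3991 (95% interval 2870 to 5731, exact binomial). For POX02740 the same ratio was 103 (65.9 to 173) and for POX07535 11.3 (9.55 to 13.5). PCR copies are not independent molecules, so such intervals cover counting error only.

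These ratios set 1 library against others of its own strain, so they carry no test and describe that library only. All 8 members were at least 8-fold higher in Ku70 F, as were 1.55% of the 7081 IDs that reached 10 FPKM in a Ku70 library. At least 100-fold higher were 7 of the 8 members and 0.607% of those IDs. Across these IDs the median ratio was 0.945. By size of ratio, 5 members were among the 20 largest, and POX07535 ranked 97. All 8 members reached 10 FPKM in Ku70 F alone, as did 324 IDs in all, so they entered the set, and its ranks, through the library in which they were high. Of those 324 IDs, 27.2% were at least 8-fold and 12.04% at least 100-fold higher in Ku70 F. These shares are descriptions and support nothing about the list.

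**Figure D2:**
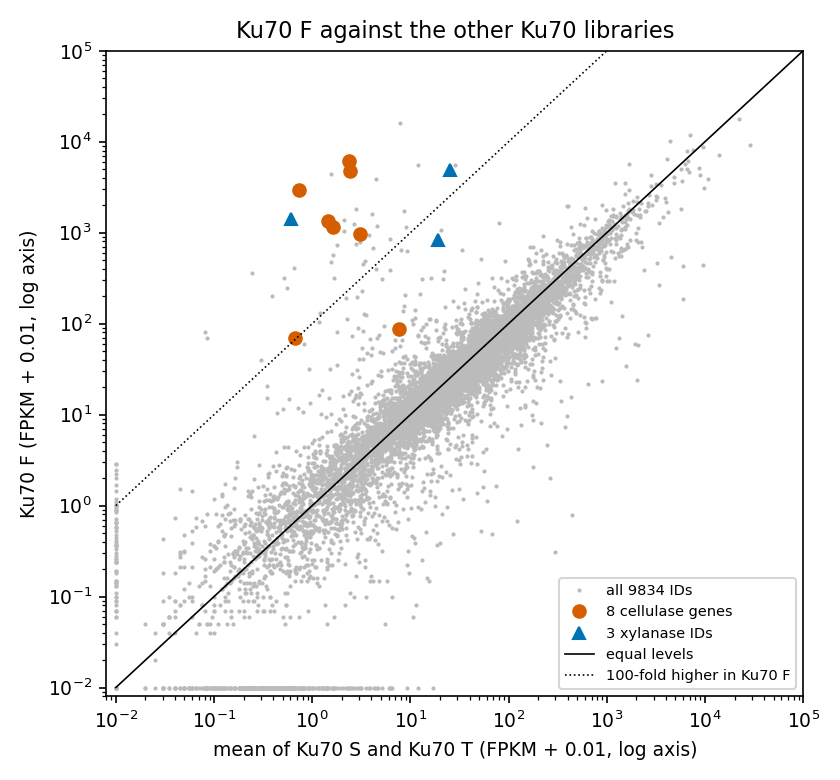
Level in Ku70 F against the mean level of Ku70 S and T for all 9834 IDs, in FPKM + 0.01 on log axes, with the 8 cellulase genes and 3 xylanase IDs marked. Of the cellulase genes, 7 lie on or above the dotted line of a 100-fold difference and POX07535, at 11.4-fold, lies below it.

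The contrast reached beyond the cellulase genes. The 3 xylanase IDs, genes of hemicellulose breakdown by the literature on HP7-1, were also higher in Ku70 F. POX00063 had 1405 FPKM in Ku70 F, against 0.38 FPKM in Ku70 S and 0.82 FPKM in Ku70 T. POX08484 and POX06783 were 193-fold and 43.2-fold higher in Ku70 F than the mean of Ku70 S and T. The starch enzyme IDs did not share this contrast. POX01356 had 199.8 FPKM in Ku70 F, against 404 FPKM in Ku70 S and 121 FPKM in Ku70 T, and POX09352 had 34.9 FPKM in Ku70 F, against 46.2 FPKM in Ku70 S and 23.3 FPKM in Ku70 T. The targeted genes and POX03446, a regulator of starch enzymes, were likewise within 1.5-fold of the mean of Ku70 S and T, with ratios of 1.36 for POX01907, 0.924 for POX08340 and 1.29 for POX03446.

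By likeness of pattern, 2 IDs outside the list followed the mean log2(FPKM + 1) of the 8 members most closely over the 9 libraries. POX09801 (Pearson r = 0.998) had 69.3 FPKM in Ku70 F and at most 0.1 FPKM in the other 8. POX06051 (r = 0.998) had 16246 FPKM in Ku70 F and 5.42 to 15.4 FPKM in the others. These coefficients rest on Ku70 F. Over the other 8 libraries, in which the mean moved little, the closest IDs were POX00526 (r = 0.960) and POX01378 (r = 0.915). There the coefficients leaned on MuPOX01907 T, where the mean was 2.02, against 1.25 to 1.65 in the rest. POX00526 had 10.99 FPKM in MuPOX01907 T, against 3.22 to 5.22 FPKM in the rest. POX00526 was not raised in Ku70 F, at 3.21 FPKM, against 4.98 FPKM in Ku70 S and 5.22 FPKM in Ku70 T. POX01378 was higher in Ku70 F, at 75.2 FPKM, against 41.4 FPKM in Ku70 S and 42.2 FPKM in Ku70 T. The sources used here name no product for these 4 IDs.

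The make-up of the cellulase transcripts also differed between Ku70 F and the other libraries. In Ku70 F, POX01166 held 35.3% of the summed FPKM of the 8 genes, POX04786 27.4% and POX05587 16.6%. POX07535 held 0.499% there, against 28.4% to 52.5% in the other 8 libraries, where it was the highest member in every one. POX05587 held 2.81% to 6.33% in those 8 libraries. POX02740 was the lowest member in Ku70 F and in 7 of the other 8 libraries, Ku70 T being the exception.

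Order by level was thus similar among the 8 low libraries and different in Ku70 F. Spearman's rho of the FPKM of the 8 genes lay between 0.500 and 0.976 for the 28 pairs among the low libraries, with a median of 0.810. For the 8 pairs with Ku70 F it lay between -0.19 and 0.33, with a median of -0.036. These coefficients are descriptions over 8 genes whose values share libraries. The members with the highest basal levels, POX07535 and POX06147, had ratios of 11.4-fold and 313-fold in Ku70 F. POX05587, among the lowest, had the largest ratio, but POX02740, the lowest by mean over the other 8 libraries (0.40 FPKM), had only 104-fold. The levels of Ku70 S and T are also the denominators of these ratios.

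**Figure D3:**
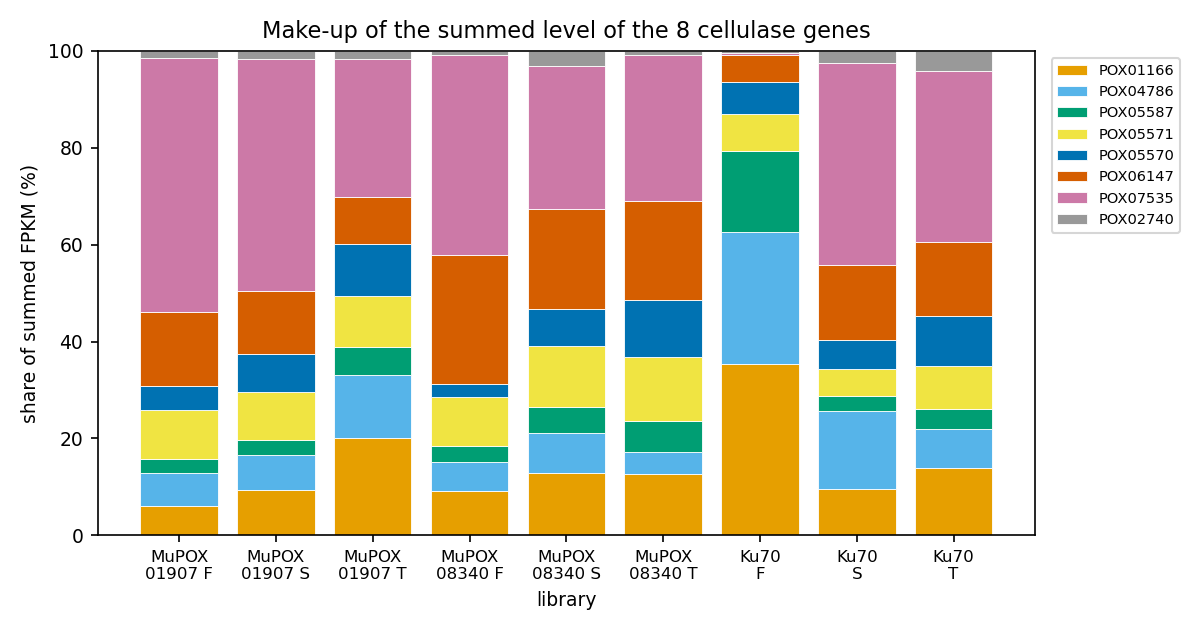
Share of each of the 8 cellulase genes in their summed FPKM (%), 1 stacked bar for each library. POX07535 takes 28.4% to 52.5% in all libraries but Ku70 F, where POX01166, POX04786 and POX05587 take 35.3%, 27.4% and 16.6%.

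Among the 8 libraries other than Ku70 F the cellulase genes had low levels. Summed, they had 19.6, 21.5 and 28.8 FPKM in MuPOX01907 F, S and T, 15.1, 15.9 and 17.2 FPKM in MuPOX08340 F, S and T, and 20 and 20.1 FPKM in Ku70 S and T. The low sums of MuPOX08340 rested on POX07535, the highest member: without it the strains overlapped, at 9.31, 11.2 and 20.65 FPKM in MuPOX01907 F, S and T, 8.88, 11.2 and 12.03 FPKM in MuPOX08340 F, S and T, and 11.7 and 13.0 FPKM in Ku70 S and T. The whole list drew 232 to 470 counts per library, so that a single gene rested on 2 to 107 counts. Differences were tested gene by gene with edgeR on the expected counts, fitted over all genes of the 8 libraries with TMM scaling. A gene was called at an adjusted p under 0.05 together with an absolute log2 fold change of at least 1.

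POX07535 had the clearest strain difference. It measured 10.3, 10.3 and 8.19 FPKM in MuPOX01907 F, S and T, 6.22, 4.72 and 5.19 FPKM in MuPOX08340 F, S and T, and 8.34 and 7.07 FPKM in Ku70 S and T. Every MuPOX01907 library lay above every MuPOX08340 library, as held for 16.9% of IDs of at least 1 FPKM. The Ku70 libraries S and T lay above MuPOX08340, as for 25.8% of these IDs, and overlapped MuPOX01907. Between the mutants the level was 2.27-fold higher in MuPOX01907 (log2 1.18, SE 0.18, edgeR adjusted p = 0.000751). Against Ku70 S and T it was 1.58-fold higher in MuPOX01907 (log2 0.66, SE 0.20, edgeR adjusted p = 0.0245), which is under the fold minimum. In MuPOX08340 it was lower than in Ku70 S and T by a log2 of -0.53 (SE 0.20, edgeR adjusted p = 0.0918), which did not pass. With library totals in place of TMM the difference between the mutants was log2 0.83 (edgeR adjusted p = 0.00385), past the p threshold but under the fold minimum. Leaving out any single library kept the call between the mutants.

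POX04786 was the other gene called between the mutants. It measured 1.32, 1.56 and 3.75 FPKM in MuPOX01907 F, S and T, 0.92, 1.33 and 0.78 FPKM in MuPOX08340 F, S and T, and 3.24 and 1.64 FPKM in Ku70 S and T. MuPOX01907 and MuPOX08340 overlapped by a narrow margin (1.32 against 1.33 FPKM), while both Ku70 libraries lay above MuPOX08340, as for 25.8% of IDs. The level was 2.78-fold higher in MuPOX01907 than in MuPOX08340 (log2 1.47, SE 0.47, edgeR adjusted p = 0.03). This call rested on single libraries. The adjusted p from edgeR was 0.115 without MuPOX01907 T, 0.0699 without MuPOX08340 F and 0.0824 without MuPOX08340 T, and 0.0629 with library totals. In MuPOX08340 against Ku70 S and T the log2 fold change was -1.28 (SE 0.51, edgeR adjusted p = 0.106), which did not pass.

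POX05571 was the single member called between a mutant and Ku70 S and T. It measured 2, 2.13 and 3.04 FPKM in MuPOX01907 F, S and T, 1.51, 2 and 2.28 FPKM in MuPOX08340 F, S and T, and 1.08 and 1.78 FPKM in Ku70 S and T. All MuPOX01907 libraries lay above both Ku70 libraries, as for 18.4% of IDs, and MuPOX08340 overlapped both strains. The level was 2.11-fold higher in MuPOX01907 than in Ku70 S and T (log2 1.08, SE 0.31, edgeR adjusted p = 0.0204). The call was lost without MuPOX01907 T (edgeR adjusted p = 0.0635), without Ku70 S (0.125) and with library totals (log2 0.73, adjusted p = 0.0741).

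POX06147 was the steadiest member. It measured 2.99, 2.76 and 2.83 FPKM in MuPOX01907 F, S and T, 4.01, 3.28 and 3.54 FPKM in MuPOX08340 F, S and T, and 3.12 and 3.06 FPKM in Ku70 S and T. On the FPKM scale the groups did not overlap, with MuPOX08340 highest and MuPOX01907 lowest. Of IDs of at least 1 FPKM, 49.4% lay lower in every MuPOX01907 than in every MuPOX08340 library. MuPOX01907 lay below Ku70 S and T for 52.6% of these IDs, and MuPOX08340 lay above Ku70 S and T for 24.2%. With TMM scaling the mutants differed by a log2 of 0.01 (95% interval -0.34 to 0.37, edgeR adjusted p = 0.961), and with library totals the sign turned to -0.34 (adjusted p = 0.0921).

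For the remaining members the spread within a strain was as wide as any difference between strains. POX01166 measured 1.21, 2.03 and 5.80 FPKM in MuPOX01907 F, S and T, 1.37, 2.05 and 2.20 FPKM in MuPOX08340 F, S and T, and 1.91 and 2.78 FPKM in Ku70 S and T. POX05570 measured 0.96, 1.73 and 3.08 FPKM in MuPOX01907, 0.43, 1.22 and 2 FPKM in MuPOX08340, and 1.2 and 2.06 FPKM in Ku70 S and T. POX05587 measured 0.55, 0.63 and 1.66 FPKM in MuPOX01907, 0.50, 0.85 and 1.09 FPKM in MuPOX08340, and 0.62 and 0.83 FPKM in Ku70 S and T. All strains overlapped in each of these genes. Their log2 fold changes between the mutants were 1.03 (95% interval -0.16 to 2.23) for POX01166, 1.00 (-0.28 to 2.28) for POX05570 and 0.56 (-0.51 to 1.63) for POX05587, and the edgeR adjusted p values were 0.135, 0.172 and 0.353. These intervals reach past a 2-fold difference, so at this depth the genes are not shown to be alike between the strains.

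POX02740 had too few reads to enter the test. It drew 4, 5 and 7 counts in MuPOX01907 F, S and T, 2, 6.97 and 2 in MuPOX08340 F, S and T, and 7 and 12 in Ku70 S and T. The ratio of summed counts per library total was 0.564 for MuPOX01907 over Ku70 S and T (95% interval 0.271 to 1.16, exact binomial) and 0.390 for MuPOX08340 over Ku70 S and T (0.168 to 0.863). For MuPOX01907 over MuPOX08340 it was 1.44 (0.630 to 3.44). Counting error alone enters these intervals, and MuPOX08340 S and Ku70 S had nearly the same number of counts.

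**Figure D4:**
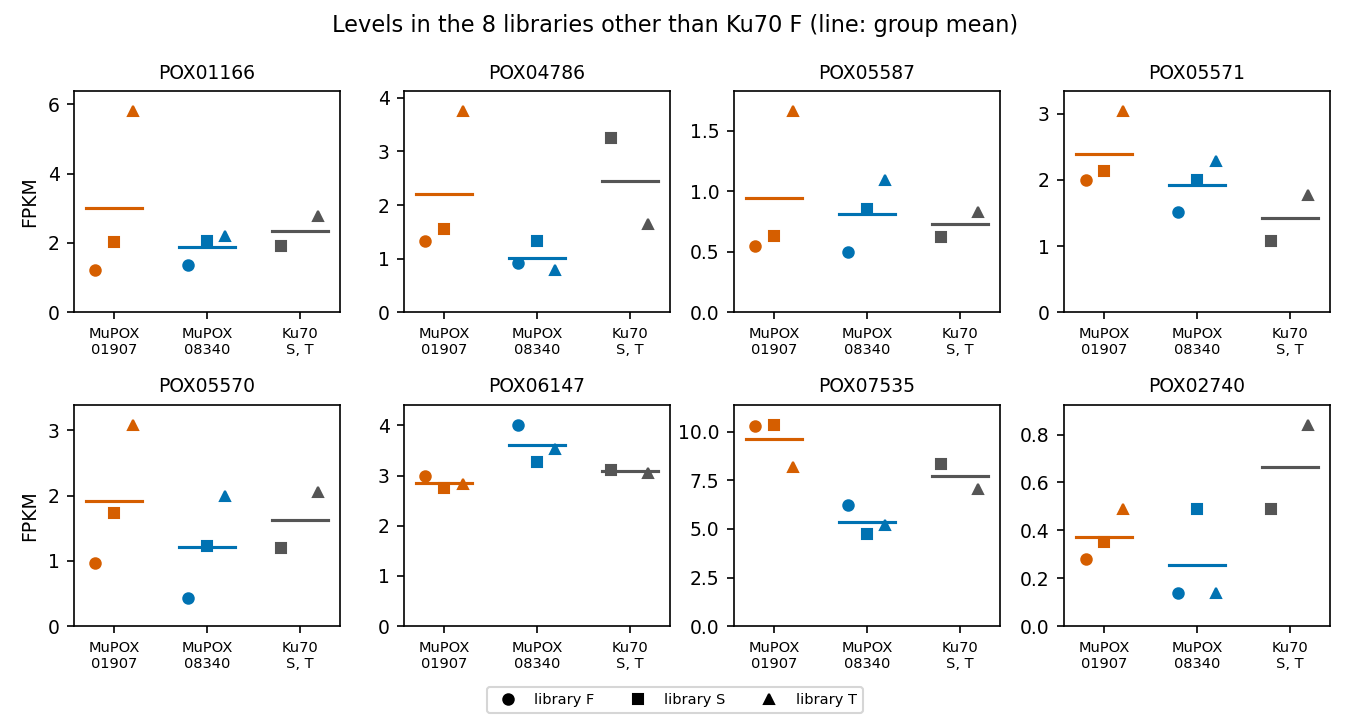
Level in FPKM of each cellulase gene in the 8 libraries other than Ku70 F, 1 panel for each gene with its own axis from 0, points for libraries and lines for group means. POX07535 (MuPOX01907 higher) and POX06147 (MuPOX01907 lower) separate the mutants without overlap, as do 16.9% (higher) and 49.4% (lower) of IDs of at least 1 FPKM. MuPOX01907 T is the highest MuPOX01907 point in 6 of the 8 panels.

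Counted over the list, 7 of the 8 members passed the filter on low counts. In MuPOX01907 against MuPOX08340, edgeR called 2 higher and 0 lower, against 22.8% of all 8681 genes called in either direction and 11.6% called higher. In MuPOX01907 against Ku70 S and T, 1 was called higher and 0 lower, against 22.2% of all genes in either direction. Without the fold minimum the count was 2 (POX05571 and POX07535), against 47.3% of all genes. In MuPOX08340 against Ku70 S and T, 0 were called by edgeR, DESeq2 or limma, against 8.90% of all genes by edgeR. There 2 members had an unadjusted p under 0.05 with edgeR, a rule for which no share of all genes was counted. With 7 members, none of these counts can be set apart from the share of all genes. Set against Ku70 S and T, the 7 members had a median log2 fold change of 0.66 in MuPOX01907 (all genes tested, -0.03) and of -0.32 in MuPOX08340 (all genes, -0.0015). Between the mutants the median was 1.00 (all genes, -0.05). All 7 values were positive in MuPOX01907 against Ku70 S and T and between the mutants, but the share of all genes with positive values was not counted. Under library totals POX06147 turned negative in both comparisons and POX04786 in the first. With 1 library left out, POX04786 and POX01166 could turn negative in the first comparison, and POX05587 and POX06147 between the mutants. Scaling bears on these signs: with library totals the median of all genes was -0.37 and -0.39 in the same 2 comparisons.

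**Figure D5:**
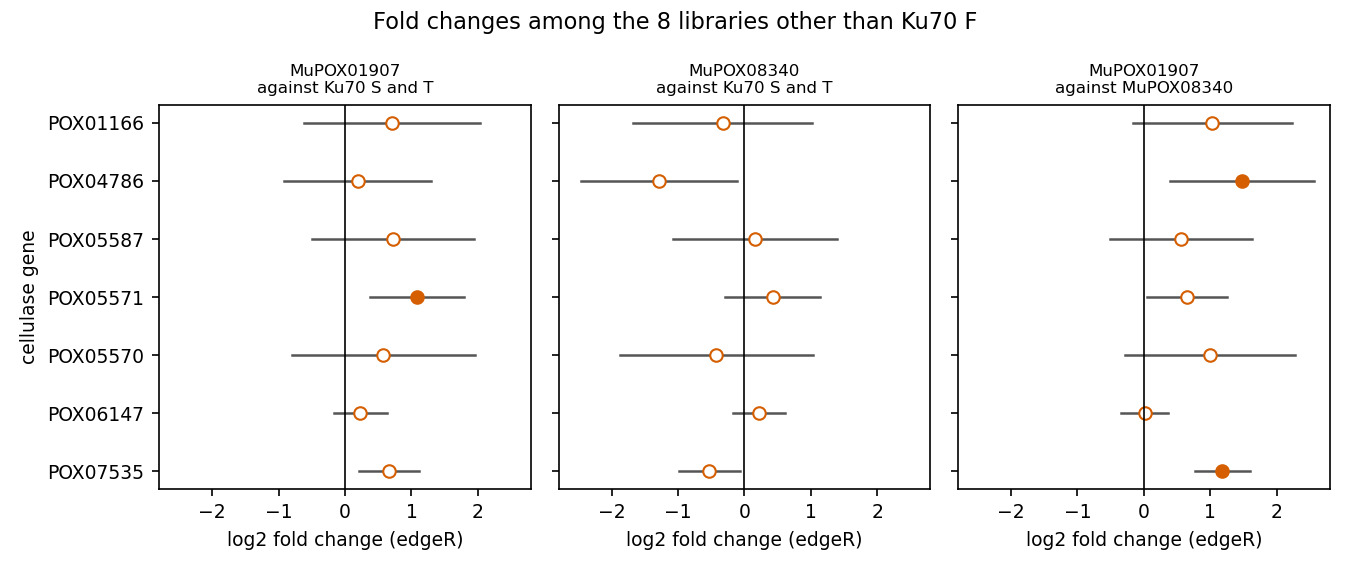
Log2 fold change with its 95% interval for 7 cellulase genes in 3 comparisons of the 8 libraries other than Ku70 F, from edgeR (filled where called, POX02740 not tested). The filled points are POX05571 in MuPOX01907 against Ku70 S and T, and POX04786 and POX07535 between the mutants.

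Library T stood above the rest of MuPOX01907 for most of the list. Its level over the mean of MuPOX01907 F and S was 3.58 for POX01166, 2.81 for POX05587, 2.60 for POX04786, 2.29 for POX05570, 1.56 for POX02740 and 1.47 for POX05571, but 0.984 for POX06147 and 0.794 for POX07535. Over 1.5 stood 5 of the 8 members and 4.90% of the 8252 IDs of at least 1 FPKM in that strain. Of these members, POX05587 and POX02740 had strain means of 0.947 and 0.373 FPKM and fell short of that minimum. The member count and the share of IDs are therefore not like for like. The 4 genes that led here were among the 5 with the largest ratios in Ku70 F. Among 36 other IDs at least 100-fold higher in Ku70 F, the median ratio in MuPOX01907 T was 1.25, and 13 (36.1%) stood over 1.5. Over the 8252 IDs of at least 1 FPKM the median was 0.962, while no such minimum was set for the 36. Such a share was not seen in that library alone, with each library set against the rest of its own group (Ku70 F left out). Of these IDs with a ratio, 31.4% stood over 1.5 in MuPOX08340 T, 27.8% in Ku70 S and 22.2% in Ku70 T. Their medians there were 0.947, 1.04 and 0.962. Of all IDs of at least 1 FPKM, 9.19%, 6.37% and 11.3% stood over 1.5 in these libraries. Of the 8 members, 2 did so in MuPOX08340 S, 2 in MuPOX08340 T, 1 in Ku70 S and 3 in Ku70 T. In MuPOX01907 F, MuPOX01907 S and MuPOX08340 F, 0 members did so. The counts of the 8 members in MuPOX01907 T equalled 0.0567% (POX05587) to 9.35% (POX07535) of those in Ku70 F, with 0.0935% for POX01166 and 0.292% for POX06147. Without this library, 1 member was called between the mutants and 0 against Ku70 S and T.

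The xylanase IDs, compared in the same way, gave 2 calls higher in MuPOX01907 than in MuPOX08340 (POX06783, log2 1.35, edgeR adjusted p = 0.00011, and POX00063, log2 1.63, adjusted p = 0.0242) and 0 lower. POX06783 was also called higher in MuPOX01907 than in Ku70 S and T (log2 2, SE 0.17, edgeR adjusted p = 4.62e-05). Its levels, 70.1, 60.8 and 50.2 FPKM in MuPOX01907 F, S and T, against 18.8 FPKM in Ku70 S and 19.5 FPKM in Ku70 T, were not highest in library T, whereas POX00063 had 0.78, 1.05 and 2.13 FPKM in MuPOX01907 F, S and T, against 0.28, 0.67 and 0.67 FPKM in MuPOX08340 F, S and T. Of the starch enzyme IDs, POX09352 was called lower in MuPOX01907 and both IDs in MuPOX08340 against Ku70 S and T. Whether the cellulase genes responded differently from either group was not tested.

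With Ku70 F back in the fit, the comparisons with Ku70 rested on that library. Of the 7 members tested with all 9 libraries, edgeR called 6 lower in MuPOX01907 than in Ku70, against 12.9% of all genes called lower, and the log2 fold changes of the 7 lay between -9.70 and -1.53 (POX07535, not called). It called 1, POX04786, lower in MuPOX08340, against 5.14% of all genes. The other members tested had edgeR adjusted p values of 0.0557 to 0.0733 there, above the threshold by little. The counts of called members therefore do not set the mutants apart. The log2 fold changes of the 7 in MuPOX08340 lay between -10.68 and -2.72. Without Ku70 F the called members numbered 1, and it was higher, in MuPOX01907 and 0 in MuPOX08340, and the median log2 fold change of the list moved to 0.66 in place of -7.35 and to -0.32 in place of -8.35. Between the mutants 0 members were called by edgeR or limma with Ku70 F in the fit, against 20.3% of all genes by edgeR. An unadjusted p under 0.05 with edgeR was reached by 0 members, and no share of all genes was counted for that rule. All groups share 1 spread in the fit, and the SE of POX07535 was 0.88 with Ku70 F and 0.18 without it. The counts against Ku70 changed with single libraries: with any 1 MuPOX01907 library left out, 0 members were called in either comparison, and with Ku70 S left out 7 were called in each. Over all genes edgeR called 1545 to 1739 and 481 to 538 with 1 MuPOX01907 library left out, and 1869 and 589 without Ku70 S, in place of 1932 and 683 with all 9 libraries (MuPOX01907 and MuPOX08340 against Ku70).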

How the data were processed

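Expected counts and FPKM values per gene were used as deposited by the authors, 1 file per library, and both units are named per the file headers. The submitters' processing notes name RSEM 1.2.12, Bowtie2 2.1.0, DESeq2 and BWA 0.7.10-r789. The sources used here do not give their roles, the genome build, the strandedness or the handling of reads shared by near-identical genes. None of the IDs matched RefSeq (0 matches), so no name, coordinate or sequence is given.

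Expected counts were rounded and tested with edgeR 4.0.16 in R 4.3.3 (quasi-likelihood, TMM, filterByExpr with a minimum count of 10, all groups sharing 1 spread, Benjamini-Hochberg adjustment over all genes tested). The SE was derived from the fold change and the F statistic. Alternatives were limma 3.58.1 on log2(FPKM + 1), DESeq2 1.42.0, other scalings, filters, and single libraries left out. The fits were tested on simulated data in which all genes had the same spread and no library stood apart as Ku70 F does. Those data therefore do not cover the fit that includes Ku70 F.

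The members, the comparison lists, the setting apart of Ku70 F and the tests were chosen with earlier results of these data known. Named genes were the members, those lists, the 2 IDs most like the members' mean over 9 and over 8 libraries (reaching 10 FPKM), and IDs within 2 numbers of a member that were at least 8-fold higher in Ku70 F. P-values measure the spread between libraries, which may be technical.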

Additional observations from a re-analysis of the deposited data

How the results depend on the processing

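Counts of called members among the 8 libraries other than Ku70 F held with RLE size factors, with DESeq2 and without the low-count filter. With library totals, and with limma on log2(FPKM + 1), on log2(FPKM + 0.1) and on log2(FPKM + 1) without a low-value filter, 0 members were called in each of the 3 comparisons of these libraries, although POX07535 kept an adjusted p under 0.05 between the mutants. Without the fold minimum, 2 were called in MuPOX01907 against Ku70 S and T. Leaving out 1 library at a time gave 0 to 1 calls in MuPOX01907 against Ku70 S and T, 0 in MuPOX08340 against Ku70 S and T, and 1 to 3 between the mutants. A lone Ku70 library is then assumed to vary like the other groups. With all 9 libraries, the 6 calls in MuPOX01907 and the 1 in MuPOX08340 against Ku70 became 0 with each limma setting, with the replicate block and with only the 2 groups compared, and ranged from 0 to 7 in both comparisons when 1 library was left out. Between the mutants the 9-library count of 0 became 2 with only the 2 groups compared and 0 to 2 when 1 library was left out. DESeq2 gave no adjusted p for any member with all 9 libraries. The median ratio of Ku70 F to Ku70 S and T was 827 and fell to 498 with FPKM + 1 in both terms.

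Signs turned for values that were not called. In MuPOX01907 against Ku70 S and T the log2 fold changes of POX04786 and POX06147 were -0.14 and -0.11 with library totals, -0.14 and -0.084 with limma on log2(FPKM + 1), with and without its filter, and -0.21 and -0.11 with log2(FPKM + 0.1). When 1 library was left out, POX04786 ranged from -0.43 to 0.82 and POX01166 from -0.19 to 1.08. In MuPOX08340 against Ku70 S and T, POX05587 ranged from -0.13 to 0.41, and POX01166 was 0.024 with the replicate block. Between the mutants POX06147 was -0.34 with library totals, -0.25 with limma on log2(FPKM + 1), with and without its filter, -0.32 with log2(FPKM + 0.1) and -0.055 to 0.083 when 1 library was left out, and POX05587 was -0.12 to 0.84. The cause was not tested. Over all settings with the fold minimum the count of all genes called ranged from 281 to 1023 in MuPOX08340 against Ku70 with 9 libraries (683 as reported) and from 533 to 1128 with 8 (773 as reported). Without the fold minimum the counts over the 8 libraries were 4102, 1828 and 4297 in place of 1930, 773 and 1977. With library totals the share of higher calls was 22.4% in place of 45.1% in MuPOX01907 against Ku70 S and T and 29.4% in place of 51.0% between the mutants. The letters F, S and T were not shown to pair libraries: deviations from the group means correlated at -0.17 to 0.58 for the same letter, and the same letter gave the best match in 7 of 18 cases. The replicate block gave 1, 0 and 3 calls over the 8 libraries. Between the mutants, all genes called ranged from 1785 to 2276 with 8 libraries (1977 as reported). With 9 libraries they ranged from 1499 to 2035 (1751 as reported), in both cases over all settings with the fold minimum. Whether the 3 calls exceeded the share of all genes was not tested.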

Other observations

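Of the 28 IDs that lie within 2 running numbers of a cellulase gene, 4 were at least 8-fold higher in Ku70 F than in the mean of Ku70 S and T, and the median ratio was 1.38. Of the 20 that reached 10 FPKM in a Ku70 library the same 4 did so, against 1.55% of all 7081 such IDs, and these 4 were picked for their ratios. POX01168, 2 numbers after POX01166, had 478 FPKM in Ku70 F, against 1.89 FPKM in Ku70 S and 1.23 FPKM in Ku70 T. POX02739, 1 number before POX02740, had 493 FPKM in Ku70 F, against 5.50 FPKM in Ku70 S and 1.39 FPKM in Ku70 T, and so stood above the cellulase gene beside it. POX07536, next to POX07535, was 30.5-fold higher and POX05588, next to POX05587, 14.0-fold higher. POX01165, 1 number before POX01166, went the other way, with 1.65 FPKM in Ku70 F, against 67.2 FPKM in Ku70 S and 80.1 FPKM in Ku70 T; it was singled out after its value was seen. The sources used here name no product for these IDs. Whether running numbers follow the chromosomes was not tested.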
